A study of Mus musculus with 6 samples.

Results

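The genes described here are *Tmem252*, *Mpp3*, *Gm4610* and *Gm12840*, which were higher in GRdim/dim than in GR+/+ lungs, and *Gpr137c*, *Rbfox3*, *Scube2* and *Adgrl3*, which were lower. They are 8 of the 54532 genes in the deposited read counts, and were picked by symbol as little-studied genes with a large difference between the genotypes. The genotype difference of these genes is therefore a description and carries no test. All 8 were among the 16568 genes with enough reads for a test. *Gm12840* entered that set through its GRdim/dim counts, since its GR+/+ counts were 7, 7 and 19. Of the 8, 6 are protein-coding and 2 are annotated as noncoding.

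Lung RNA was sequenced from 3 GRdim/dim mice and 3 GR+/+ littermate controls on a mixed 129/SvEv x C57BL/6 background, each between 10 and 16 weeks old. GRdim/dim mice carry a germline point mutation of *Nr3c1*, the gene of the glucocorticoid receptor (GR), that impairs receptor dimerization in every cell type. All 6 mice had been ventilated, bled to a mean arterial pressure of 35 mmHg for 1 h of hemorrhagic shock (HS) and resuscitated for 4 h with retransfused blood, fluids and norepinephrine. No sham-treated or unoperated lungs were among the libraries, so a genotype difference present before HS and one that arose after it cannot be told apart. Of the GR+/+ mice 2 were female and 1 was male, and of the GRdim/dim mice 1 was female and 2 were male. One library of poly(A)-captured RNA was made per mouse, and the experiments were run on separate days, so that the spread given here includes mouse, day and library.

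GR is a nuclear receptor that binds glucocorticoids and then acts on genes as a dimer on palindromic DNA elements or in other ways, such as contact with other transcription factors. The protein-coding genes described here belong to families known mostly from other tissues than lung. *Tmem252* encodes a small transmembrane protein of poorly known function. *Mpp3* encodes a membrane-associated guanylate kinase, a scaffold at cell junctions, and *Gpr137c* a multi-pass membrane protein of a family with lysosomal members. RBFOX3, also called NeuN, is an RNA-binding splicing regulator used as a marker of neuronal nuclei. SCUBE2 is a secreted and cell-surface protein that helps to release lipid-modified hedgehog ligands from the cells that make them. ADGRL3, or latrophilin 3, is an adhesion G protein-coupled receptor that binds the cell-surface proteins of the FLRT and teneurin families.

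Sequences of 4 genes are shown. The noncoding transcripts show what their counts can rest on, and the promoters of *Gpr137c* and *Rbfox3* are given as those with AGAACA, one arm of the palindromic GR element. The promoter windows (RefSeq, GRCm38.p6) run from 250 bases before to 50 after a transcription start. The *Gpr137c* window is chr14:45219467-45219766 on the plus strand, and the *Rbfox3* window is chr11:118760992-118761291 on the minus strand, inside the span of the gene. Capitals mark AGAACA or its reverse complement TGTTCT.
Gpr137c promoter: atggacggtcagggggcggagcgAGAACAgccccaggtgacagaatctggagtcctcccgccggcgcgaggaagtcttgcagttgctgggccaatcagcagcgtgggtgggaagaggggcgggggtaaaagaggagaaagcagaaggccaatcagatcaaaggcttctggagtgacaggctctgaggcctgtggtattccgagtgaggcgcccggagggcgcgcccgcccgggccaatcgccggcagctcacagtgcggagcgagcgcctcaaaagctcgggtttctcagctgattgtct
Rbfox3 promoter: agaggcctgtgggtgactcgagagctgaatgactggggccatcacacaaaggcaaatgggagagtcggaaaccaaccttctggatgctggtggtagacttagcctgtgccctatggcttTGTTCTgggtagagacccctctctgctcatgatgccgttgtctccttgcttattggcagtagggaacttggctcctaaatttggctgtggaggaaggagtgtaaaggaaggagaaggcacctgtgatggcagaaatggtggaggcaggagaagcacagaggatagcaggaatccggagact
The motif lay at -227 to -222 from the start in *Gpr137c* and at -131 to -126 in *Rbfox3*. It was searched on both strands, and 19% of the 32851 promoter windows of that length held it. A promoter entry was found for 6 of the 8 genes, with 8 windows in all, and *Mpp3* and *Gm12840* had no entry. With 2 of 8 windows, the motif was near its share in all windows, and its presence is no result about these genes. None of these windows held the longer GR element GNACANNNTGTNC, which 0.475% of all windows held. None held an inverted-repeat negative GR element (CTCCGGAGA, CTCCNGGAGA or CTCCNNGGAGA, in 1.72% of all windows), the AP-1 motif TGANTCA (7.81%) or the STAT motif TTCNNNGAA (8.3%). The letters CCAAT occurred 3 times in the *Gpr137c* window and once each in those of *Rbfox3* and *Tmem252*, against 37.4% of all windows with a match. TATAAA was present in 1 of the *Adgrl3* windows, from -28 to -23, against 13.6% of all windows. These matches describe letters in the windows and no measured binding.

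The noncoding genes are each annotated with 1 transcript of 2 exons (GENCODE M21, GRCm38). *Gm4610* is an antisense gene at chr3:122377097-122391811 on the minus strand, with a transcript of 905 bases. It lies inside the span of *Bcar3*, which encodes an adaptor protein of integrin signaling and runs on the plus strand, and shares 0 exon bases with it. None of its windows of 31 bases occurred in the transcripts of another gene. *Gm12840* is a lincRNA gene at chr4:117700188-117700923 on the plus strand, with a transcript of 627 bases. Of its windows of 31 bases, 62% occurred in other genes too, and 508 of its 627 bases lay in such a window. The genes were *Gm26809* and *Gm20186* with 59.8% of the windows each and *AC160336.1* with 13.7%. Bases 1 to 200 of the *Gm4610* transcript and bases 328 to 627 of the *Gm12840* transcript are given. Capitals mark bases in windows shared with another gene.
Gm4610 transcript start: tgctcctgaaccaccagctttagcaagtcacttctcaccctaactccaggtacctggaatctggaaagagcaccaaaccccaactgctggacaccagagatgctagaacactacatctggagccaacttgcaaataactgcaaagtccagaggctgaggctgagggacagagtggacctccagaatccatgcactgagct
Gm12840 transcript end: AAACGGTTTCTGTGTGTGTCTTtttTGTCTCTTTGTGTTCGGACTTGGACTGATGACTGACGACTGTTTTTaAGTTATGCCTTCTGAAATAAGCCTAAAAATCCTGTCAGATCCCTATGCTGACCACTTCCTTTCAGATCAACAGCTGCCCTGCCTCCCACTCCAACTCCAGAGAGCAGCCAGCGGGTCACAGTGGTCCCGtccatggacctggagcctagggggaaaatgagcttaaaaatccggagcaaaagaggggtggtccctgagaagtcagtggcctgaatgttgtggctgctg
The unmarked bases of *Gm12840* lay mostly at its end, so reads from most of this transcript could also belong to the other genes.

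Total counts were 16361747 to 32082940 in the GR+/+ libraries and 15687734 to 24444604 in the GRdim/dim libraries. Levels are given as CPM, the count as a share of the library total, scaled with the TMM factors of edgeR. Surfactant gene *Sftpc* (9270 to 16394 CPM), club cell gene *Scgb1a1* (13822 to 27513 CPM) and alveolar type 1 gene *Ager* (1576 to 2834 CPM) were abundant in all 6 libraries. *Nr3c1* had 148 ± 12.2 CPM (SD, n = 3) in GR+/+ and 143 ± 20.2 CPM in GRdim/dim lungs, a log2 fold change of -0.05 (SE 0.17). The point mutation itself cannot be seen in counts. *Xist* was at 309.5 to 462.5 CPM in GR+/+ replicates 2 and 3 and GRdim/dim replicate 2, and the other libraries had Y-linked transcripts instead, which gives the number of each sex stated for the genotypes. In whole lung, fewer cells of a type and less RNA per cell cannot be told apart.

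All 8 genes had libraries that did not overlap between the genotypes. Among all genes tested, 14.8% did not overlap. All 8 also passed the threshold for a differentially expressed gene (DEG), set at a Benjamini-Hochberg adjusted *p*-value below 0.05 by edgeR and a log2 fold change beyond 0.5. Of all genes tested, 0.169% were DEGs, with 0.0724% higher and 0.0966% lower in GRdim/dim lungs. Since this contrast chose the genes, nothing is read from either count. With 1 library left out, between 1 (without GR+/+ replicate 2, *Gm4610*) and 6 of the 8 were still called, and *Gm12840* was called in 1 of these 6 fits. Of all genes, these fits called between 4 of 17048 (without GR+/+ replicate 2) and 22 of 16904 (without GRdim/dim replicate 1). Nothing is read from these counts either. The gap between the genotypes, as the lowest library of the higher genotype over the highest of the lower one, was 1.96-fold for *Adgrl3* and 2.63- to 6.33-fold for the others.

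**Figure D1:**
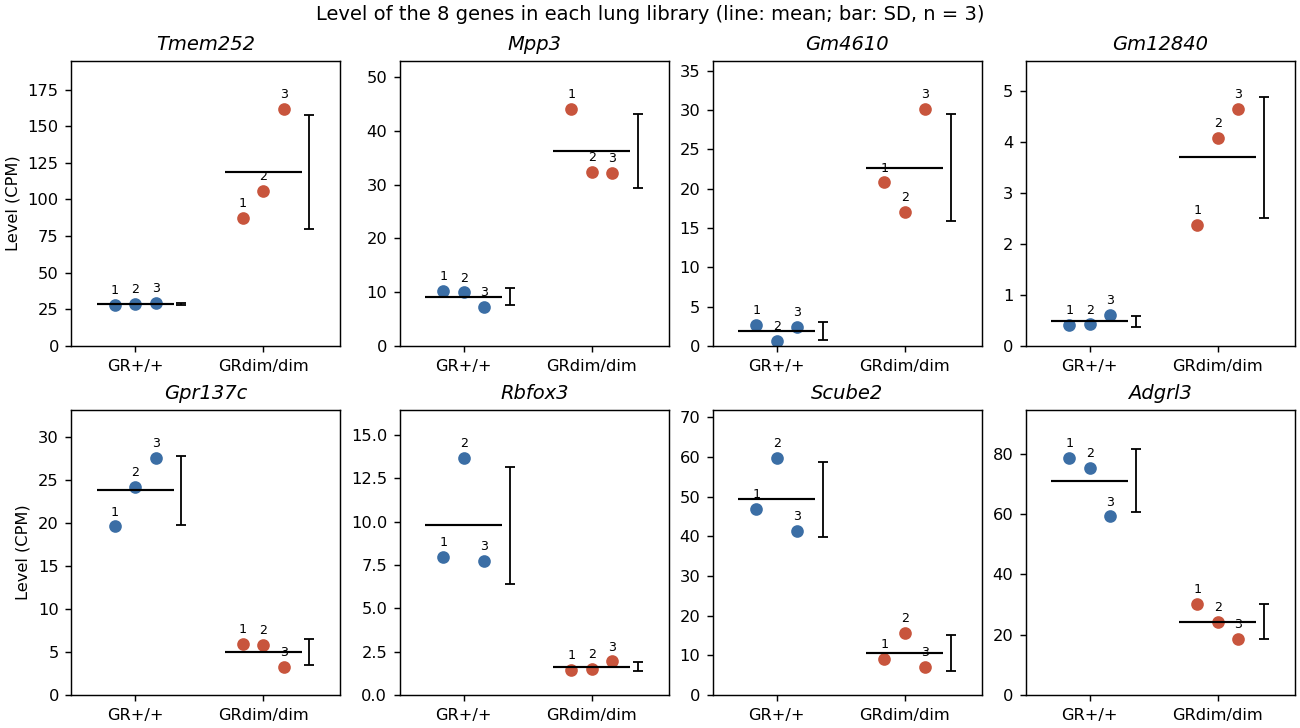
Each panel plots 1 gene, with the level in CPM on the vertical axis and the genotype on the horizontal axis. Points are the libraries with their replicate number, the line is the mean and the bar the SD (n = 3). The GRdim/dim points lie above all GR+/+ points in the upper row and below them in the lower row.

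Among the genes with higher levels, *Tmem252* (ENSMUSG00000048572, chr19:24674008-24679661, plus strand) was the most abundant per length in both genotypes. It had 27.7, 28.6 and 29.2 CPM in GR+/+ replicates 1, 2 and 3, and 87.2, 106 and 162 CPM in GRdim/dim replicates 1, 2 and 3. The GR+/+ libraries were nearly alike, with a coefficient of variation of 2.53%, while the GRdim/dim libraries spread 1.86-fold from lowest to highest. The means were 28.5 ± 0.721 and 119 ± 39.1 CPM (SD, n = 3), a log2 fold change of 2.06 (SE 0.23), or 4.16-fold.

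*Mpp3* (ENSMUSG00000052373, chr11:101999652-102028461, minus strand) had 10.2, 9.95 and 7.31 CPM in GR+/+ replicates and 44.2, 32.4 and 32.2 CPM in GRdim/dim replicates. GRdim/dim replicate 1 was the highest, and the spread within each genotype was similar (1.39- and 1.37-fold from lowest to highest). With means of 9.14 ± 1.59 and 36.2 ± 6.86 CPM (SD, n = 3), the log2 fold change was 1.99 (SE 0.23). Of its windows of 31 bases, 2.58% were shared with other genes.

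*Gm4610* (ENSMUSG00000104554) had 2.69, 0.600 and 2.41 CPM in GR+/+ and 20.8, 17.0 and 30.2 CPM in GRdim/dim replicates. The counts behind these levels were 45, 10 and 76 in GR+/+ and 386, 410 and 468 in GRdim/dim libraries. GR+/+ replicate 2 lay below the other GR+/+ libraries, and the spread within GR+/+ was 4.49-fold. The means of 1.90 ± 1.14 and 22.7 ± 6.79 CPM (SD, n = 3) gave a log2 fold change of 3.55 (SE 0.46), or 11.7-fold.

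*Bcar3*, whose span holds *Gm4610* on the opposite strand, had 129, 55.1 and 82.3 CPM in GR+/+ and 112, 113 and 180 CPM in GRdim/dim replicates. The genotypes overlapped (log2 fold change 0.61, SE 0.30, edgeR adjusted *p* = 0.574). *Gm4610* counts amounted to 2.09%, 1.09% and 2.93% of the *Bcar3* level in GR+/+ and to 18.6%, 15.1% and 16.8% in GRdim/dim libraries. In both genotypes the library with the highest *Bcar3* level also had the highest *Gm4610* level, and the order of GR+/+ libraries was the same for both genes. Whether the counting used strand is not given in the sources used here, so that reads from unspliced *Bcar3* RNA and from *Gm4610* cannot be told apart.

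*Gm12840* (ENSMUSG00000086320) had the fewest counts of the 8 genes in GR+/+ lungs. It had 0.418, 0.420 and 0.604 CPM in GR+/+ and 2.37, 4.07 and 4.65 CPM in GRdim/dim replicates, from 44, 98 and 72 counts in the latter. The means were 0.481 ± 0.107 and 3.70 ± 1.18 CPM (SD, n = 3), a log2 fold change of 2.90 (SE 0.43). *Gm26809*, which shares most of the *Gm12840* transcript sequence, had 52.1, 31.1 and 59.9 CPM in GR+/+ and 96.8, 64.6 and 52.8 CPM in GRdim/dim replicates. It overlapped between genotypes and did not pass the test (log2 fold change 0.58, SE 0.28, edgeR adjusted *p* = 0.556). The *Gm12840* level was 0.804%, 1.35% and 1.01% of that of *Gm26809* in GR+/+ and 2.45%, 6.31% and 8.80% in GRdim/dim libraries. GRdim/dim replicate 1 had the highest *Gm26809* and the lowest *Gm12840* level of its genotype. *Gm20186* (0.120 to 0.377 CPM) and *AC160336.1* (0.508 to 2.43 CPM) were low in all libraries. How reads that match several genes were assigned is not given in the sources used here, so the level of *Gm12840* is uncertain.

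**Figure D2:**
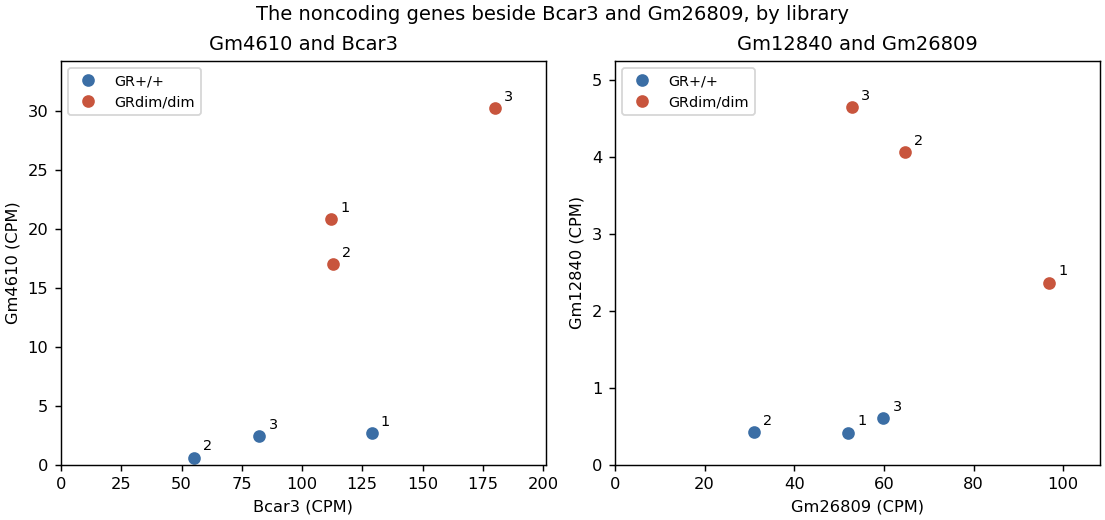
The left panel plots *Gm4610* against *Bcar3* and the right panel *Gm12840* against *Gm26809*, both in CPM, with 1 point per library and its replicate number. The GRdim/dim libraries lie above the GR+/+ libraries on the vertical axis, while the genotypes overlap on the horizontal axis (55.1 to 129 against 112 to 180 CPM for *Bcar3*).

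Among the genes with lower levels, *Adgrl3* (ENSMUSG00000037605, chr5:81020138-81825133, plus strand) had the most counts. Its levels were 78.7, 75.2 and 59.2 CPM in GR+/+ and 30.2, 24.2 and 18.5 CPM in GRdim/dim replicates. The means of 71.0 ± 10.4 and 24.3 ± 5.86 CPM (SD, n = 3) gave a log2 fold change of -1.54 (SE 0.22), or 2.92-fold lower, the smallest difference of the 8 genes. The antisense gene *Gm16054* shares 1582 exon bases with *Adgrl3* but was at 0.646 to 2.92 CPM only, with a log2 fold change of -0.84 (SE 0.46, edgeR adjusted *p* = 0.614).

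*Scube2* (ENSMUSG00000007279, chr7:109798676-109865679, minus strand) had 46.9, 59.8 and 41.3 CPM in GR+/+ and 9.17, 15.7 and 7.04 CPM in GRdim/dim replicates. Replicate 2 was the highest in each genotype, and both are libraries with high *Xist*, as is GR+/+ replicate 3, the lowest of its genotype. The means were 49.3 ± 9.46 and 10.6 ± 4.51 CPM (SD, n = 3), a log2 fold change of -2.20 (SE 0.30), or 4.61-fold lower. No window of 31 bases of its transcripts was shared with another gene.

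*Gpr137c* (ENSMUSG00000049092, chr14:45219717-45282725, plus strand) had 19.6, 24.2 and 27.6 CPM in GR+/+ and 5.98, 5.86 and 3.29 CPM in GRdim/dim replicates. GRdim/dim replicate 3 was the lowest. With means of 23.8 ± 4.03 and 5.05 ± 1.52 CPM (SD, n = 3), the log2 fold change was -2.23 (SE 0.28), or 4.70-fold lower. *Txndc16*, a thioredoxin domain gene on the opposite strand, shares 159 exon bases with it and had 45.0 ± 4.46 and 31.6 ± 3.73 CPM (SD, n = 3). Its genotypes did not overlap, but it did not pass the test (log2 fold change -0.51, SE 0.18, edgeR adjusted *p* = 0.405).

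*Rbfox3* (ENSMUSG00000025576, chr11:118489762-118911597, minus strand) had 7.95, 13.7 and 7.75 CPM in GR+/+ and 1.46, 1.5 and 1.94 CPM in GRdim/dim replicates. GR+/+ replicate 2 stood above the other GR+/+ libraries, while the GRdim/dim libraries had only 27, 36 and 30 counts. The means were 9.81 ± 3.40 and 1.63 ± 0.267 CPM (SD, n = 3), a log2 fold change of -2.59 (SE 0.34), or 6.02-fold lower.

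Per length, the order of the 8 genes differed between the genotypes. In GR+/+ lungs *Scube2* (11.9 CPM per kb of gene model) and *Tmem252* (11.6) came first and overlapped, followed by *Adgrl3* (4), *Gpr137c* (2.71), *Gm4610* (2.1), *Rbfox3* (1.69), *Mpp3* (0.974) and *Gm12840* (0.766). *Gm4610*, with 0.662 to 2.97 CPM per kb, overlapped its neighbours on either side in this order, and so did *Mpp3* and *Gm12840* with each other. In GRdim/dim lungs the order was *Tmem252* (48.2 CPM per kb), *Gm4610* (25.1), *Gm12840* (5.9), *Mpp3* (3.86), *Scube2* (2.56), *Adgrl3* (1.37), *Gpr137c* (0.575) and *Rbfox3* (0.28). There *Mpp3* overlapped *Gm12840* and *Scube2*, and *Scube2* overlapped *Adgrl3*, while the other neighbours in the order were separate.

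The libraries of a genotype did not all rank alike. GRdim/dim replicate 3 was the highest of the 6 libraries for 3 of the 4 genes with higher levels and the lowest for 3 of the 4 with lower levels, with *Mpp3* and *Rbfox3* as the exceptions. Within GRdim/dim the SD of log2 CPM was 0.22 (*Rbfox3*) to 0.58 (*Scube2*), and its median over all genes tested was 0.31. Within GR+/+ it was 0.04 (*Tmem252*) to 1.11 (*Gm4610*), with a median of 0.24 over all genes. In GR+/+ the SD was above the median for all but *Tmem252* and *Adgrl3*, and in GRdim/dim for all but *Mpp3* and *Rbfox3*. The means over the 6 libraries placed *Tmem252* at percentile 79 of all genes tested and *Gm12840* at percentile 15.9.

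Leaving out each library in turn moved the log2 fold change of *Tmem252* between 1.76 and 2.24, that of *Mpp3* between 1.83 and 2.08, that of *Gm4610* between 3.16 and 3.84 and that of *Gm12840* between 2.71 and 3.14. The values for the lower genes lay between -2.36 and -2.01 for *Gpr137c*, -2.74 and -2.26 for *Rbfox3*, -2.60 and -1.98 for *Scube2*, and -1.72 and -1.38 for *Adgrl3*. Sex was unevenly spread over the genotypes, so the ratio of mean levels was also computed within each sex, with no test, since 1 GRdim/dim library stood against 2 GR+/+ libraries among those with high *Xist* and 2 against 1 among those with Y-linked transcripts. Among the libraries with high *Xist*, the log2 ratio was 1.88 for *Tmem252*, 1.91 for *Mpp3*, 3.50 for *Gm4610* and 2.99 for *Gm12840*, and among those with Y-linked transcripts it was 2.17, 1.91, 3.25 and 3.07. The corresponding values were -2.15 and -2.08 for *Gpr137c*, -2.84 and -2.23 for *Rbfox3*, -1.69 and -2.53 for *Scube2* and -1.48 and -1.69 for *Adgrl3*. The high-*Xist* ratio of *Scube2* rested on GRdim/dim replicate 2, its highest library in that genotype.

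**Figure D3:**
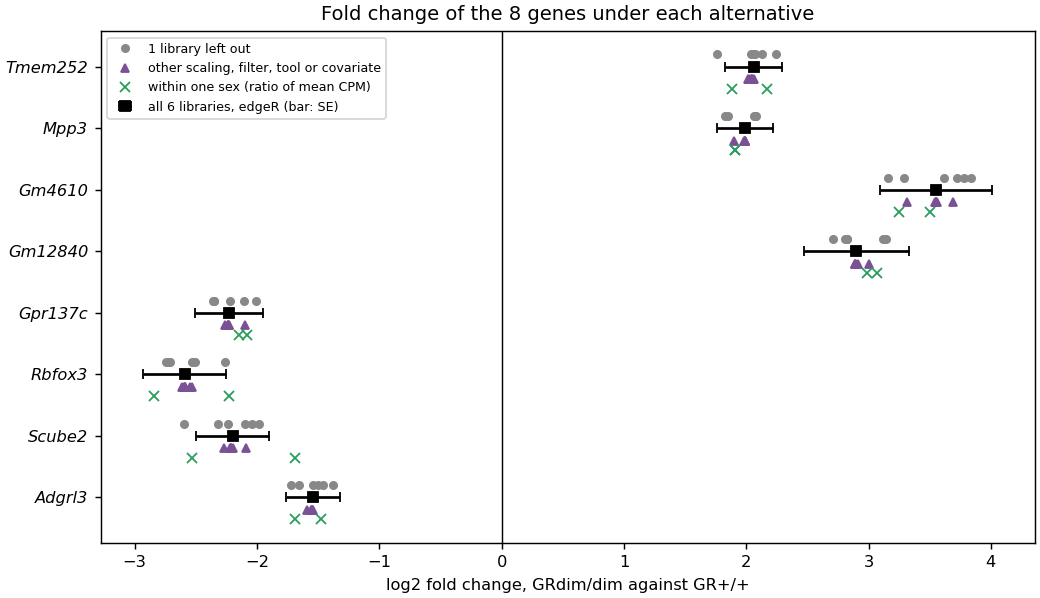
The horizontal axis gives the log2 fold change of GRdim/dim against GR+/+ for each gene. Black squares with SE bars are the values from all 6 libraries, grey circles leave out 1 library, purple triangles use another scaling, filter, tool or covariate, and green crosses are log2 ratios of mean CPM within a sex. Every value lies on the same side of 0 as the square, which the choice of genes without overlap between genotypes largely fixed in advance. The *Scube2* crosses are the farthest apart (-2.53 and -1.69).

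Levels of relatives were compared per length, as CPM per kb of gene model. *Scube2* was the main gene of its family in GR+/+ lungs with 11.9 ± 2.28 CPM per kb (SD, n = 3), above *Scube1* (2.16 ± 0.944) and *Scube3* (0.593 ± 0.186). In GRdim/dim lungs *Scube2* was at 2.56 ± 1.09 and overlapped *Scube1* at 1.6 ± 0.856 CPM per kb. The share of *Scube2* in the summed family level was 81.2% in GR+/+ and 54.2% in GRdim/dim lungs. The log2 fold changes of *Scube1* (-0.42, SE 0.42) and *Scube3* (-0.06, SE 0.36) did not pass the test (edgeR adjusted *p* = 0.825 and 0.978).

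*Mpp3*, *Gpr137c*, *Rbfox3* and *Adgrl3* were minor members of their families in lung. Among the MPP scaffolds *Mpp3* was at rank 7 of 8 by level in both genotypes, with 0.974 ± 0.17 CPM per kb (SD, n = 3) in GR+/+ and 3.86 ± 0.731 in GRdim/dim lungs. In GRdim/dim lungs it overlapped its next relative *Mpp6* (4.45 ± 0.42 CPM per kb), which it did not in GR+/+ lungs (2.79 ± 0.629). *Mpp5* had the highest mean, at 20.6 ± 5.3 and 15.8 ± 4.06 CPM per kb, and overlapped *Mpp7* in GRdim/dim but not in GR+/+ lungs. *Mpp7* (10.4 and 12), *Mpp1* (9.47 and 9.46), *Mpp2* (5.31 and 5.49) and *Cask* (4.99 and 4.96) came between, and *Mpp4* was near 0 (0.0779 and 0.0517 CPM per kb).

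*Gpr137c* was the lowest of its family, at 2.71 ± 0.459 CPM per kb (SD, n = 3) in GR+/+ and 0.575 ± 0.173 in GRdim/dim lungs. *Gpr137b* (12.7 ± 0.349 and 13.3 ± 0.815) and *Gpr137* (10.4 ± 0.612 and 11 ± 4.82) were higher, with log2 fold changes of 0.06 (SE 0.15) and 0.08 (SE 0.28). The *Gpr137c* share of the summed level was 10.5% in GR+/+ and 2.32% in GRdim/dim lungs. *Rbfox2*, the ubiquitous RBFOX gene, carried 88.5% and 96.5% of the summed RBFOX level, at 15.6 ± 1.29 and 15.1 ± 0.53 CPM per kb, with a log2 fold change of -0.04 (SE 0.15). *Rbfox3* had 1.69 ± 0.584 CPM per kb in GR+/+ and 0.280 ± 0.046 in GRdim/dim lungs, where it overlapped *Rbfox1* (0.262 ± 0.0884). The log2 fold change of *Rbfox1* was -0.33 with an SE of 0.69.

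*Adgrl3* was the lowest latrophilin, with 4 ± 0.587 CPM per kb (SD, n = 3) in GR+/+ and 1.37 ± 0.33 in GRdim/dim lungs. *Adgrl4*, an endothelial receptor, was the highest at 74.6 ± 8.07 and 53.8 ± 15 CPM per kb. *Adgrl1* had 13.4 ± 3.64 and 7.95 ± 1.48, and *Adgrl2* 6.86 ± 1.6 and 7.24 ± 2.36 CPM per kb. *Adgrl1* (log2 fold change -0.76, SE 0.23), *Adgrl4* (-0.47, SE 0.23) and *Adgrl2* (0.08, SE 0.25) did not pass the test (edgeR adjusted *p* = 0.320, 0.559 and 0.962). Without a filter on low counts *Adgrl1* passed it, with an adjusted *p*-value of 0.017 in that fit.

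**Figure D4:**
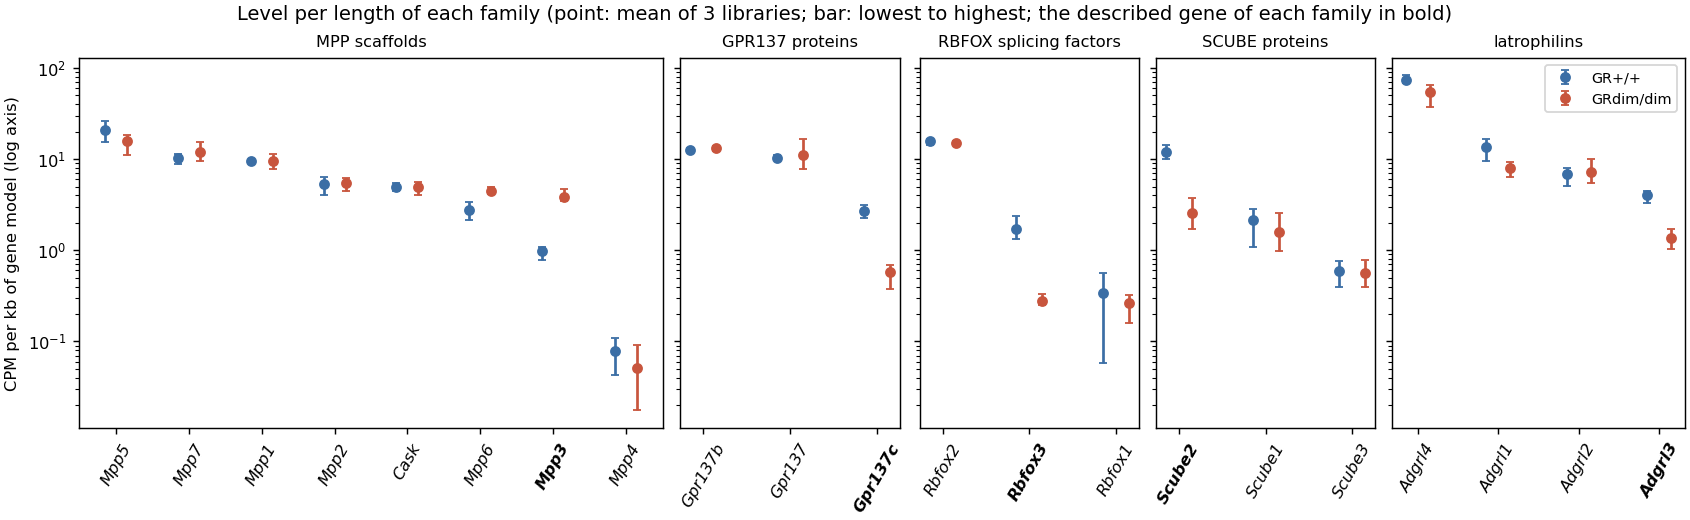
Each panel is a gene family, with the level in CPM per kb of gene model on a log axis. Points are means of 3 libraries and bars run from the lowest to the highest library, in blue for GR+/+ and red for GRdim/dim. The gene in bold in each panel is the described one, and its bars are separate between genotypes in all panels (for *Scube2*, 9.95 to 14.4 against 1.69 to 3.78 CPM per kb).

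Relatives and binding or pathway partners were taken from lists of 52 genes, of which 45 could be tested. By edgeR's quasi-likelihood test 0 were DEGs, against 0.169% of all genes tested. At an unadjusted *p*-value under 0.05 there were 5, or 11.1%, against 9.6% of all genes tested, with 1 higher and 4 lower. Their median log2 fold change of -0.06 compared with 0.01 for all genes. DESeq2 called 1 of 44, *Gas1*, against 1.7% of all genes it tested.

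*Gas1*, a hedgehog co-receptor at the cell surface, had 38.8, 36.9 and 29.8 CPM in GR+/+ and 13.4, 19.6 and 12.7 CPM in GRdim/dim replicates. The genotypes did not overlap and the log2 fold change was -1.20 (SE 0.23). Its adjusted *p*-value was 0.0928 with edgeR and 4.87e-04 with DESeq2, and ranged from 1.42e-04 to 0.282 over the alternatives. The co-receptor *Cdon* was at 25.7 ± 6.09 and 15.8 ± 1.17 CPM (SD, n = 3), with a log2 fold change of -0.70 (edgeR adjusted *p* = 0.360). The pathway targets *Ptch1* (-0.22), *Gli1* (-0.60) and *Hhip* (0.30) did not pass the test, nor did the ligands *Shh* (0.13), *Ihh* (0.06) and *Dhh* (-0.69). All 15 hedgehog genes could be tested, with 0 called by edgeR and 1 by DESeq2, against 0.169% and 1.7% of all genes. At an unadjusted *p*-value under 0.05 there were 2, or 13.3%, against 9.6% of all genes, and the median log2 fold change was -0.36, against 0.01.

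Among the ligands and partners of latrophilins, 0 of 10 tested genes passed edgeR's test and 1, *Nrxn2* with a log2 fold change of -0.91 (SE 0.29, adjusted *p* = 0.349), had an unadjusted *p*-value under 0.05, a share of 10% against 9.6% of all genes. DESeq2 called 0 of 9, where the shares of all genes called were 0.169% by edgeR and 1.7% by DESeq2. The lowest value was -1.58 for *Unc5d* (SE 0.72), which was at 0.0831 to 1.02 CPM. It moved to -2.89 without GRdim/dim replicate 1 and to -1.09 without GRdim/dim replicate 2. Of the junction partners of MPP3, 0 of 5 passed either tool's test or had an unadjusted *p*-value under 0.05, from -0.31 for the adhesion molecule gene *Cadm1* to 0.27 for *Nectin1*. Of the MPP scaffolds, *Mpp6* had the largest log2 fold change (0.67, SE 0.22, edgeR adjusted *p* = 0.360) and *Mpp5* the smallest (-0.39, SE 0.25, adjusted *p* = 0.688).

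Neighbours were examined to see whether the differences extended beyond each gene. Within 200 kb of the 8 genes lay 121 other genes, of which 56 could be tested. By edgeR 0 of them were DEGs, with a smallest adjusted *p*-value of 0.346, against 0.169% of all genes tested. DESeq2 called 0 of 55, against 1.7% of all genes it tested. At shares this low, 0 called among so few genes cannot tell whether the differences extended beyond each gene. At an unadjusted *p*-value under 0.05 there were 7, or 12.5%, against 9.6% of all genes, with 3 higher and 4 lower. Their median log2 fold change was 0.03. Within 500 kb 0 of 111 tested neighbours were DEGs by edgeR, with 10, or 9.01%, at an unadjusted *p*-value under 0.05, and DESeq2 called 0 of 108. The values there ran from -0.84 (*Gm16054*) to 1.64 for *Slc4a1*, the red cell anion exchanger gene, which was at 0.12 to 28.8 CPM (SE 1.92, edgeR adjusted *p* = 0.869).

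Around *Tmem252* the values ran from -0.62 for *Pgm5*, which lies 3.35 kb away, to 0.48 for *Fam122a*. Around *Mpp3* they ran from -0.44 (*Hdac5*) to 0.91 for *Cd300lg*, an endothelial receptor gene 13 kb away with 8.37, 15 and 10.2 CPM in GR+/+ and 18.2, 28.1 and 16.8 CPM in GRdim/dim replicates. *Cd300lg* did not pass the test (SE 0.29, edgeR adjusted *p* = 0.346), while it did without a filter on low counts. *Dusp3*, 12.6 kb from *Mpp3*, had a log2 fold change of 0.03 (SE 0.17). The range was -0.51 (*Txndc16*) to 0.31 (*Gm22637*) around *Gpr137c*, -0.67 (*Cbx2*) to 0.61 (*Lgals3bp*) around *Rbfox3*, and -0.71 (*BC051019*) to 0.92 (*1600010M07Rik*) around *Scube2*. Near *Adgrl3* only *Gm16054* (-0.84) and *2900064F13Rik* (-0.32) could be tested. Around *Gm4610* the values ran from -0.43 (*Fnbp1l*) to 0.61 (*Bcar3*), and around *Gm12840* from -0.47 (*Slc6a9*) to 0.39 (*Dmap1*).

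**Figure D5:**
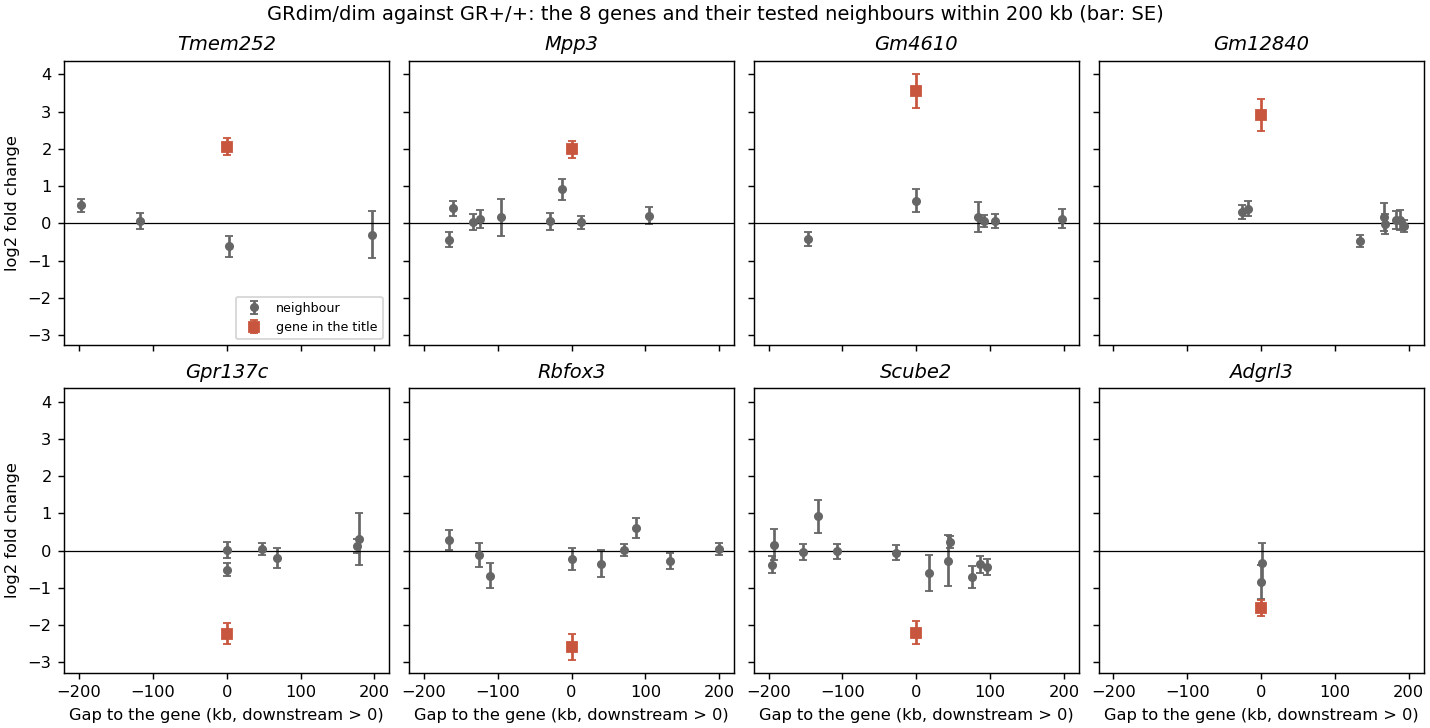
Each panel gives the gene in its title as a red square at 0 and its tested neighbours as grey circles. The horizontal axis is the gap between the genes in kb, positive downstream, and the vertical axis is the log2 fold change of GRdim/dim against GR+/+ with its SE. The squares lie outside the neighbours, whose values run from -0.84 to 0.92. The squares were chosen for a large difference and the neighbours were not, so this gap follows from the choice.

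For each gene, the closest patterns over the 6 libraries were taken as the smallest root mean square difference in centred log2 CPM among 16560 other genes tested. *Fam107a*, an actin-associated stress gene, was closest to *Scube2* with a difference of 0.17. It had 23.6, 34.0 and 23.9 CPM in GR+/+ and 5.55, 11.7 and 4.26 CPM in GRdim/dim replicates, so that replicate 2 was the highest in each genotype as for *Scube2*. The next for *Scube2* was *Gm12473* (0.295). *Adgrl3* was closest to *Ccbe1*, a secreted lymphatic growth regulator (0.177). *Gpr137c* was closest to *Tcf23* (0.181) and *Rab3c* (0.214), and *Rbfox3* to *B530045E10Rik* (0.195) and the sulfotransferase gene *Sult1a1* (0.245).

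Among the genes with higher levels, *Tmem252* was closest to *Cd207*, the gene of langerin (0.215), and to *Fxyd6* (0.251). *Mpp3* was closest to *A630023P12Rik* (0.209) and the mast cell tryptase gene *Tpsb2* (0.255), both at 2 CPM or less in all libraries. The noncoding genes had no neighbour as close, with *Sugct* (0.832) and *Gm15990* (0.841) for *Gm4610*, and *H60c* (0.398) and *Cd207* (0.417) for *Gm12840*. The likeness was computed over the same libraries in which the genes were chosen, and is a description.

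Markers of the cell types a lung sample can hold were summed per library. Of 121 marker genes, 105 could be tested. By edgeR 0 were DEGs, against 0.169% of all genes. At an unadjusted *p*-value under 0.05 there were 19 (18.1%), against 9.6% of all genes. These were 15 higher and 4 lower in GRdim/dim lungs. DESeq2 called 6 of 104, namely *Chil3*, *Lyve1*, *Trac*, *Scgb3a1*, *Cldn5* and *Retnlg*, against 1.7% of all genes it tested. Beside *Rbfox3*, the neuron markers summed to 51.9, 72.8 and 67.5 CPM in GR+/+ and 47.9, 84.4 and 75.4 CPM in GRdim/dim replicates, with 4 of 13 tested. *Stmn2*, *Uchl1* and *Gap43* made up most of these sums, and *Prph*, a filament gene of peripheral neurons, was at 0.956 to 3.66 CPM. These 4 overlapped between the genotypes. *Snap25*, *Syt1*, *Tubb3*, *Nefl*, *Nefm*, *Nefh*, *Elavl3* and *Elavl4* were at 0.840 CPM or less in every library. *Snap25*, *Nefl* and *Nefm* were at 0 in at least 1 library.

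For 8 of the lists the genotype means of the sums differed by over 1.5 times. B cell markers summed to 25.0 to 58.8 CPM in GR+/+ and 59.5 to 92.3 CPM in GRdim/dim libraries. T cell markers (13.8 to 28.3 and 32.1 to 40.2 CPM, led by *Trac* and *Cd3e*) and NK cell markers (5.86 to 17.4 and 21.3 to 32.1 CPM, led by *Gzma* and *Nkg7*) also did not overlap between genotypes. The summed alveolar macrophage markers were at 337 to 381 and 178 to 271 CPM. Most of this gap was *Chil3*, with means of 253 and 138 CPM, while *Mrc1* had 47.5 and 46.5 CPM. *Marco* had 21.2 and 13.1 CPM, *Ear2* 19.6 and 14.9 CPM, *Pparg* 13.4 and 13.4 CPM and *Siglecf* 3.37 and 4.22 CPM. Ciliated cell markers, led by *Foxj1* and *Dnah5*, summed to 229 to 458 and 150 to 233 CPM, with overlap. GR+/+ replicate 3 had 458 CPM, against 229 and 254 CPM in GR+/+ replicates 1 and 2.

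Neutrophil markers (234 to 441 and 328 to 1033 CPM, led by *S100a9* and *S100a8*) overlapped between the genotypes. The highest neutrophil sum was in GRdim/dim replicate 1, against 328 and 462 CPM in GRdim/dim replicates 2 and 3. The same library had the highest sum of lymphatic endothelial markers (373 to 611 and 561 to 1363 CPM, led by *Lyve1* and *Flt4*). GRdim/dim replicates 2 and 3 had 561 and 606 CPM of these. The difference in this sum came from *Lyve1*, with means of 335 CPM in GR+/+ and 697 CPM in GRdim/dim lungs. *Flt4* was lower in GRdim/dim lungs (131 and 110 CPM). *Mmrn1* (26.2 and 31 CPM) and *Prox1* (3.68 and 5.26 CPM) were higher there. For the neutrophil and lymphatic endothelial lists, most of the difference in means rested on GRdim/dim replicate 1. Neuroendocrine markers, led by *Calca* and *Resp18*, were low, at 5.88 to 13.6 and 9.68 to 20.1 CPM, with overlap. A difference of over 1.5 times in these lists, and in the alveolar macrophage and ciliated lists, depended on single libraries. Within GRdim/dim, replicate 1 was the highest library for 1 of the 4 genes with higher levels (*Mpp3*). It was also the highest for 2 of the 4 with lower levels (*Gpr137c* and *Adgrl3*). The part of these cell types in the levels of the 8 genes was not tested.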

How the data were processed

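The deposited values are raw read counts on genes for 6 lung libraries of poly(A)-captured RNA, as whole numbers without normalization, with gene coordinates and, as another column, the length of each gene model. Per the labels the build was mm10 and the tool DESeq2. The aligner, the counting tool and the use of strand are not given in the sources used here. The counts had 0 rows without a gene ID, and each library's column was matched to its sample by the title in its header. Each library came from a different mouse and was therefore used as a sample of its own. Libraries of one genotype were further apart than counting noise (chi-square of 20.93 to 70.14 per degree of freedom). The *p*-values set the genotype difference of a gene against the spread between these 3 mice per genotype. In the edgeR fit this spread was moderated towards that of other genes.

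The 8 genes, the gene lists and the tests were chosen with earlier results of these data known. Counts were fitted with edgeR 4.0.16 under R 4.3.3 (TMM scaling, filterByExpr, robust glmQLFit, glmQLFTest, prior count 2 for log2 CPM) over all 16568 genes, with Benjamini-Hochberg adjustment and thresholds of 0.05 and a log2 fold change of 0.5. The procedure was tested on simulated counts. Levels per length divide CPM by the deposited gene length. Gene models and sequences come from GENCODE M21 (GRCm38), in which 54495 of the 54532 gene IDs were found, and promoters from RefSeq (GRCm38.p6). Neighbours within 200 kb were taken by the deposited gene coordinates. The end of *Tmem252* differs between the deposited coordinates and GENCODE M21, and the deposited ones are given.

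By rule the text names the 8 genes, called relatives, neighbours and markers, the families by level, the largest and smallest change of each list of relatives and neighbours, the 2 closest patterns per gene, and the 2 most abundant markers of lists whose sums differed by over 1.5 times. Some genes that fall under the rule are not reported here, and genes named outside it were chosen after their values were seen. Alternatives were RLE and total-count scaling, no filter and at least 10 counts in every library, DESeq2 1.42.0, a block for the replicate number, a sex-linked covariate (*Xist* against Y-linked genes), neighbours within 500 kb, each library left out, and DEGs without the log2 threshold. Ratios within a sex were added after seeing the data.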

Additional observations from a re-analysis of the deposited data

How the results depend on the processing

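The direction of all 8 genes was the same under all 13 alternatives, or 12 for *Gm12840*, which could not be fitted with at least 10 counts in every library. The genes were chosen for a large difference in these same libraries and did not overlap between genotypes. Their direction was thus largely fixed in advance and is no support. The DEG calls of these genes were not all kept. All 8 were called with RLE or total-count scaling, with DESeq2 and without a filter, 7 with the replicate block (not *Gm12840*) and 5 with the sex covariate (not *Adgrl3*, *Gm12840* or *Rbfox3*). Of all genes tested, 29 of 16568 were called with RLE scaling and 28 of 16568 with total-count scaling. DESeq2 called 274 of 16150, and 522 of 31368 were called without a filter. The replicate block called 34 of 16568 and the sex covariate 20 of 16568. Without GR+/+ replicate 1, 2 or 3, 5, 1 and 5 were called, and without GRdim/dim replicate 1, 2 or 3, 6, 5 and 3. Of all genes, the first 3 of these fits called 12 of 17148, 4 of 17048 and 17 of 16843. The last 3 called 22 of 16904, 20 of 16865 and 14 of 17120. Since this contrast chose the 8 genes, nothing is read from their calls. Of the 16 ratios within a sex, added after seeing the data, *Rbfox3* among Y-linked libraries (-2.23) and *Scube2* among high-*Xist* libraries (-1.69) moved by more than the replicate spread. The 28 DEGs of all genes became 522 without a filter on low counts, 274 with DESeq2 and 4 to 22 with 1 library left out. They were 4 without GR+/+ replicate 2, 12 without GR+/+ replicate 1, 17 without GR+/+ replicate 3, and 22, 20 and 14 without GRdim/dim replicate 1, 2 or 3. Called relatives went from 0 to 2 without the filter (*Adgrl1* and *Gas1*) and 1 with DESeq2 (*Gas1*), called neighbours from 0 to 1 without the filter (*Cd300lg*), and called markers from 0 to 13 and 6. The cause was not tested. Several values near 0, none of them called, changed sign. *Gpr137* moved to -0.00 with the replicate block and to -0.01 with the sex covariate. *Adgrl2* moved to -0.03 with the sex covariate. With a library left out, *Gpr137* ranged from -0.34 to 0.28, *Adgrl2* from -0.21 to 0.25, *Rbfox1* from -0.87 to 0.28, *Rbfox2* from -0.11 to 0.01, *Scube3* from -0.39 to 0.16 and *Gm22637* from -0.29 to 0.79. The replicate numbers do not pair the samples, since deviations of same-numbered libraries correlated with r of 0.2175, 0.03611 and -0.05476. The replicate block gave 34 DEGs, 19 of them shared with the 28, and called 0 relatives, 0 neighbours and 0 markers. The sex covariate gave 20 DEGs, 17 shared. *Gm12840*, *Gm4610* and *Rbfox3* had the fewest counts in their lowest library (7, 10 and 27), where counting error weighs most.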
